A study of Homo sapiens with 8 samples.

Results

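Alpha and beta tubulin mRNAs were examined here for Argonaute 2 (Ago2) binding with and without a block of translation. The members are all rows of the deposited peak table whose gene symbol starts with TUBA or TUBB. They number 27 peaks in 6 genes, of 22506 peaks in 6326 genes, and 12 lie in coding sequence, 13 in 3' UTRs and 2 in 5' UTRs. The genes are the alpha tubulins TUBA1A, TUBA1B and TUBA1C and the beta tubulins TUBB, TUBB2B and TUBB4B. The cells were 293S, a line derived from HEK293 human embryonic kidney cells, grown as an adherent monolayer. One group received emetine at 20 µg/mL for 60 min and the other received no treatment. From 1 culture of each, 1 aliquot went to RNA-seq and 3 went to parallel Ago2 CLIP-seq (sequencing of RNA crosslinked to and immunoprecipitated with Ago2), each with a different antibody, which makes 8 libraries. The 3 CLIP libraries of a treatment are therefore not separate cultures, and every p-value below measures the spread between aliquots and antibodies only.

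Alpha and beta tubulin pair into the dimer that polymerises into microtubules, the hollow filaments of the spindle and of intracellular transport. Cells adjust tubulin mRNA to the amount of free dimer: when dimer is in excess, ribosomes that are making tubulin are recognised through the start of the nascent chain by TTC5, which through SCAPER brings in the CCR4-NOT deadenylase, and the mRNA is degraded. That recognition takes place only on mRNAs under translation. Emetine stops elongating ribosomes on the mRNA. Ago2 carries microRNAs to mRNAs and is best known for acting at sites in 3' UTRs, where ribosomes do not travel.

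The coding starts are shown because the autoregulatory signal is read from the peptide that these codons encode. Each is the first 30 bases of the coding sequence, 5′ to 3′, with the first 4 codons in capitals, taken from GENCODE release 29 transcripts matched to the RefSeq transcript of the deposited table.
TUBA1A: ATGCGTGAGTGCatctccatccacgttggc
TUBA1B: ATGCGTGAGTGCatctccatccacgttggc
TUBA1C: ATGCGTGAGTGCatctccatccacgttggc
TUBB: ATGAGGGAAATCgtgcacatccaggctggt
TUBB2B: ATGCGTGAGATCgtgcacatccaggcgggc
TUBB4B: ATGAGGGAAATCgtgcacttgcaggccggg
The alpha tubulins were identical over these 30 bases. TUBB and TUBB4B had 0 differences over the first 12 bases, while TUBB2B had 3 differences from either. Over the whole coding sequence, identity was 95.9% to 97.2% between alpha tubulins, 84.4% to 86.7% between beta tubulins and 52.3% to 53.5% between an alpha and a beta tubulin. This bears on the counts, because a short read from a shared stretch cannot be placed on 1 gene. Of the 30-base windows of the coding sequence, 73.9% in TUBA1A, 86.8% in TUBA1B, 73.4% in TUBA1C, 57.2% in TUBB, 81.6% in TUBB2B and 25.3% in TUBB4B also occurred in a transcript of another gene. In the 3' UTRs this share was 0.0% to 7.6%. How reads with several matches were placed is not given in the sources used here, so coding values of single tubulin genes are uncertain and their 3' UTR values less so.

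The table lists no value per library. Whole reads per library were recovered from the deposited logarithms for 22154 peaks, all 27 tubulin peaks among them. The libraries are numbered within a treatment from the one in which 1 read was worth most, the shallowest, and which antibody made which library is unknown, so equal numbers do not by themselves mark the same antibody. By that numbering the emetine libraries had 32682, 101808 and 92830 reads in listed peaks, and the control libraries 31775, 113972 and 99123. Library 1 of each treatment stood apart from the rest: over all peaks its 3' UTR share was 38.0% with emetine and 39.6% in the control, and that of the other libraries 56.2% to 65.8%. A normalised read number is the reads times the authors' library factor, and a log2 change is the mean of log2(normalised reads + 1) with emetine minus that of the control, from limma. A ratio of totals divides the summed reads of the treatments, scaled by the same factors, and has a 95% exact (Clopper-Pearson) interval. These intervals cover counting error only, and neighbouring peaks can hold the same reads. Such reads count at each peak, which can shift sums and ratios and makes intervals on sums too narrow. Of the 9 marker genes listed for HEK293-derived cells, 3 had a peak in the table (NEFL, VIM and LIN28B), and of 10 markers of other cell types 0 had one. The table holds only genes with an Ago2 peak, so this does not measure the other markers.

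Tubulin peaks, like those of the whole table, were thin and uneven between libraries. A tubulin peak held 11 to 72 reads over the 6 libraries, with a median of 18, against a median of 15 over all peaks. The library with the most reads held 63.6% of them at the median tubulin peak and 79.2% at the median of all peaks. Of the 27, 3 (11.1%) had reads in a single library, in each case emetine library 3, where 26.9% of all peaks did. The 5' UTR peak of TUBA1B was the only tubulin peak (3.70%) with reads in all 6 libraries, beside 4.02% of all peaks.

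**Figure D1:**
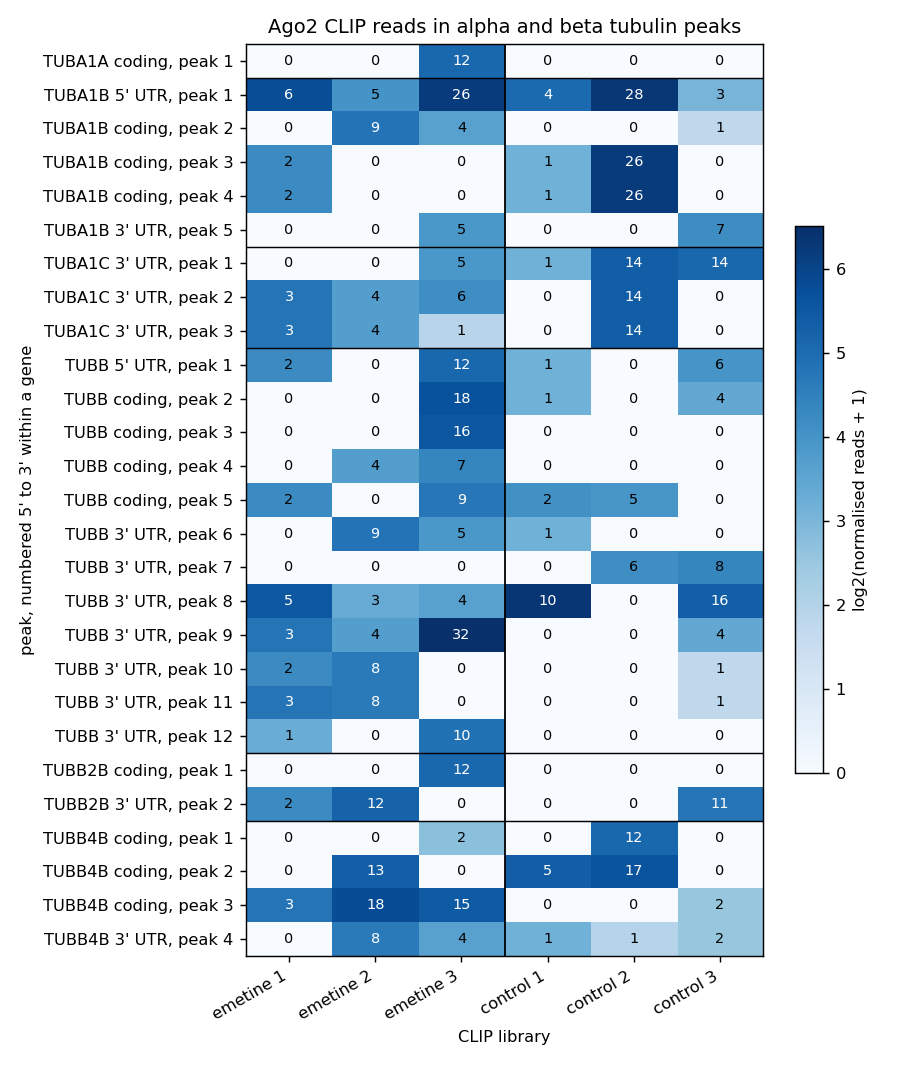
Recovered Ago2 CLIP reads (numbers) of the 27 tubulin peaks (rows, ordered 5' to 3' within each gene) in the 3 emetine and 3 control libraries (columns), with colour giving log2(normalised reads + 1). The median row has reads in 3 of the 6 libraries, and emetine library 3 has reads in more rows than any other library.

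No tubulin peak passed the test between emetine and control. Of 27 peaks, 0 had an adjusted p under 0.05 (limma, Benjamini-Hochberg over all peaks), as did 0% of all 22154 peaks, and the adjusted p of the tubulin peaks ran from 0.775 to 0.995. An unadjusted p under 0.05 was reached by 2 of the 27, beside 1.15% of all peaks. The log2 change was above 0 at 19 tubulin peaks and below 0 at 8, where 50.2% of all peaks were above 0. Its median was 1.55 over the tubulin peaks and 0.01 over all peaks. Of the 27 peaks 12 were of TUBB, and some peaks overlap, so these counts are not of independent peaks. In the authors' deposited table, which also divides by RNA, 19 of the 27 ratios were above 0, with a median of 1.33 on the log2 scale against 0.02 over all peaks. Much of this lean rested on 1 library: without emetine library 3 the log2 change was above 0 at 13 peaks, below 0 at 11 and exactly 0 at 3, with a median of 0.00.

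As ratios of totals, alpha tubulin reads lay below the control and beta tubulin reads above it. The log2 changes of TUBA1A, TUBA1B and TUBA1C were 1.71, 0.10 and 0.11, so the alpha direction differed between measures. The alpha tubulins held 16, 22 and 59 reads under emetine against 7, 122 and 25 in untreated cells, each in the order of the library numbers. Control library 2 held 122 of the 154 alpha tubulin control reads, and the groups overlapped. These totals count overlapping TUBA1B and TUBA1C peaks separately. Among them is a TUBA1B pair with identical reads, with 26 in control library 2 at each peak. The ratio of totals was 0.700 (95% interval 0.537 to 0.908), but it was 2.03 (1.35 to 3.13) without control library 2.

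The beta tubulins held 23, 87 and 146 reads under emetine against 21, 41 and 55 in untreated cells. As normalised reads these were 204, 261 and 410 against 168, 116 and 133, so every emetine library lay above every control library. That held for 3% of all single-gene sums in this direction, and the share for sums over several genes was not computed. It did not hold for TUBB, TUBB2B or TUBB4B alone. TUBB held 167 of the 256 emetine reads and 66 of the 117 control reads. The beta tubulin ratio of totals was 2.43 (95% interval 1.95 to 3.05). It was 1.88 (1.44 to 2.46) without emetine library 3, the lowest of the values that left out 1 library. Over all peaks it was 1.03. The split into alpha and beta was noticed in these data and has no test.

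TUBA1B, on chromosome 12, encodes the alpha tubulin with the highest RNA level among the 6 genes in these cells. Its 5 peaks together held 10, 14 and 35 reads under emetine against 6, 80 and 11 in untreated cells, and the groups overlapped. The log2 change was 0.10 (SE 1.14, limma adjusted p = 1.00) while the ratio of totals was 0.676 (0.481 to 0.944). The direction thus differs between the measures. Control library 2 held 80 of the 97 control reads, which count in full in the totals but as 1 library of 3 in the mean of logs. Both measures also count a pair of overlapping coding peaks with identical reads separately, each with 2 under emetine and 27 in untreated cells. That lowers the ratio of totals. With identical peaks counted once the log2 change was 0.27, and the ratio was not computed.

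The largest tubulin peak of the table was in the TUBA1B 5' UTR (hg19 chr12:49525097-49525168, minus strand). It held 6, 5 and 26 reads under emetine against 4, 28 and 3 in untreated cells. As normalised reads these were 53.2, 15.0 and 73.0 against 32.0, 79.0 and 7.28, so emetine libraries 1 and 3 and control library 2 were high, the groups overlapped, and the log2 change was 0.52 (SE 1.44). A pair of overlapping coding peaks near the end of the gene (chr12:49521799-49521832 and chr12:49521824-49521848) held the same reads, 2, 0 and 0 under emetine against 1, 26 and 0 in untreated cells. Of the 29 reads 26 were in control library 2, and the log2 change was -1.72 (SE 2.05) at each. The other coding peak and the 3' UTR peak of TUBA1B held 14 and 12 reads, with log2 changes of 2.21 and -0.086.

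TUBA1C, also on chromosome 12 and on the plus strand, had 3 peaks, all in the 3' UTR, each overlapping the next. The gene sum was 6, 8 and 12 reads under emetine against 1, 42 and 14 in untreated cells, a log2 change of 0.11 (SE 1.48) and a ratio of totals of 0.507 (0.306 to 0.819). As for TUBA1B, the groups overlapped and the directions differed, with 42 of 57 control reads in library 2. These 42 are 14 at each of the 3 overlapping peaks, so the same reads may be counted at several peaks.

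Within TUBA1C, adjoining peaks differed in sign. The first (chr12:49667030-49667061) held 0, 0 and 5 reads under emetine against 1, 14 and 14 in untreated cells, with a log2 change of -3.24 (SE 1.92, limma adjusted p = 0.775). The next (chr12:49667059-49667084) held 3, 4 and 6 under emetine against 0, 14 and 0 in untreated cells, with a log2 change of 2.43 (SE 1.91). All 3 emetine libraries had reads at the second peak and only 1 had them at the first, but control library 2 exceeded every emetine library at both. The third peak (chr12:49667065-49667108) held 3, 4 and 1 reads under emetine against 0, 14 and 0 in untreated cells, and overlaps the second.

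TUBA1A, an alpha tubulin prominent in developing neurons, had 1 coding peak with 0, 0 and 12 reads under emetine against 0 reads in every control library. All of its reads were in emetine library 3. Against a floor of 3 reads in place of the control count of 0, the total was 4.44-fold higher. This leaves out counting error in the 12 reads. All 12 were in 1 library, and the limma log2 change of 1.71 had an SE of 1.96.

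TUBB, the broadly expressed beta tubulin on chromosome 6, carried the most tubulin peaks, 12 in all. Summed, they held 18, 36 and 113 reads under emetine against 15, 11 and 40 in untreated cells. Emetine library 3 held 113 of the 167 emetine reads, and the lowest emetine library, at 108 normalised reads, lay below the highest control library, at 120. The log2 change was 1.29 (SE 0.94, limma adjusted p = 0.802) and the ratio of totals 2.81 (2.10 to 3.80).

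The 7 TUBB 3' UTR peaks together held 14, 32 and 51 reads under emetine against 11, 6 and 30 in untreated cells. As normalised reads, all 3 emetine libraries (124, 96.1 and 143) were above all 3 control libraries (88.0, 16.9 and 72.8). The groups did not overlap, which held for 3.13% of all gene and region sums in this direction. The log2 change was 1.30 (SE 1.11, limma adjusted p = 0.760) and the ratio of totals 2.29 (1.60 to 3.32).

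Among those 3' UTR peaks, 1 stood out by its reads (hg19 chr6:30692732-30692778, plus strand). It held 3, 4 and 32 reads under emetine against 0, 0 and 4 in untreated cells. Normalised, these were 26.6, 12 and 89.8 against 0, 0 and 9.71, so the groups did not overlap, as at 2.57% of all peaks in this direction. Its log2 change was 3.86 (SE 1.89, limma adjusted p = 0.775) and its ratio of totals 10.8 (3.91 to 41.7). A second peak, some way upstream (chr6:30692269-30692316), held 5, 3 and 4 reads under emetine against 10, 0 and 16 in untreated cells. Here control libraries 1 and 3 were high and control library 2 was at 0, and the log2 change was 0.26 (SE 1.69) while the ratio of totals was 0.513 (0.236 to 1.05). The other 5 held 11 to 15 reads each, and 1 of them (chr6:30692212-30692243) had 0 reads under emetine against 14 in untreated cells.

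The 4 TUBB coding peaks summed to 2, 4 and 50 reads under emetine against 3, 5 and 4 in untreated cells. Emetine library 3 held 50 of the 56 emetine reads, and the other emetine libraries were at the level of the control. The log2 change was 1.03 (SE 1.71, limma adjusted p = 0.864), and it was -0.030 without emetine library 3. The coding peak with the most reads (chr6:30690705-30690736) held 0, 0 and 18 under emetine against 1, 0 and 4 in untreated cells, where the log2 change was -0.30 (SE 2.08) and the ratio of totals 4.0 (1.43 to 13.8). The single 5' UTR peak (chr6:30688190-30688226) held 2, 0 and 12 reads under emetine against 1, 0 and 6 in untreated cells, a log2 change of 0.74 (SE 1.96).

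**Figure D2:**
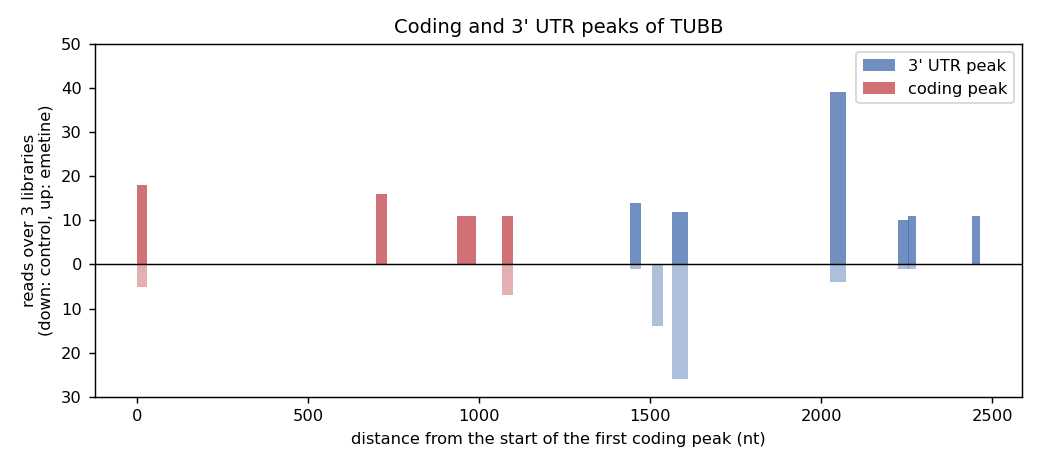
Reads over 3 libraries in the coding and 3' UTR peaks of TUBB against distance in nucleotides from the first coding peak, with emetine drawn upward and control downward. The peak with 39 emetine and 4 control reads is in the 3' UTR, and so are the 2 peaks with more control than emetine reads.

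TUBB4B, a beta tubulin on chromosome 9, had 4 peaks with 3, 39 and 21 reads under emetine against 6, 30 and 4 in untreated cells. The groups overlapped, with a log2 change of 0.71 (SE 1.35, limma adjusted p = 0.923) and a ratio of totals of 1.75 (1.16 to 2.67). Its coding peaks differed among themselves. The one at chr9:140137692-140137732 held 3, 18 and 15 reads under emetine against 0, 0 and 2 in untreated cells. The groups did not overlap there, as at 2.57% of all peaks in this direction, with a log2 change of 4.48 (SE 1.89, limma adjusted p = 0.775). The one at chr9:140137159-140137197 held 0, 13 and 0 reads under emetine against 5, 17 and 0 in untreated cells, with a log2 change of -1.88 (SE 1.97). The remaining coding peak held 2 reads under emetine against 12 in untreated cells, all 12 in control library 2.

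TUBB2B, a beta tubulin best known from neurons and also on chromosome 6, had 2 peaks with 2, 12 and 12 reads under emetine against 0, 0 and 11 in untreated cells. All emetine libraries had reads, and control library 3 held every control read. The log2 change was 3.25 (SE 2.22, limma adjusted p = 0.802) and the ratio of totals 2.63 (1.25 to 5.89). The 3' UTR peak (chr6:3224882-3224904) held 2, 12 and 0 reads under emetine against 0, 0 and 11 in untreated cells, a log2 change of 1.55 (SE 2.03). The coding peak held 12 reads, all in emetine library 3.

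Over gene sums, 0 of 6 tubulin genes passed (limma, adjusted p under 0.05), as did 0% of all 6325 genes, and 0 of the 6 had an unadjusted p under 0.05, beside 1.83% of all genes. All 6 log2 changes were above 0, from 0.10 to 3.25 with a median of 1.00, against 51.1% above 0 and a median of 0.04 over all genes. The values for TUBA1B and TUBA1C, at 0.10 and 0.11, were small beside their SE. The shared sign did not hold when some single libraries were left out. Without emetine library 3 the TUBA1A value was 0 and that of TUBA1B -0.12. Without control library 3 those of TUBA1B and TUBB4B were -0.54 and -0.16.

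No difference between coding and 3' UTR binding of the tubulins passed a test. Of 12 coding peaks, 7 had a log2 change above 0 (median 1.01), a share near the 54.6% of all coding peaks (median 0.29). Of 13 3' UTR peaks, 10 were above 0 (median 1.69), where 47.2% of all 3' UTR peaks were (median -0.17). Of these 13, 7 were of TUBB and 3 of TUBA1C, and some overlap, so they are not independent. Without emetine library 3, 3 of the 12 coding peaks were above 0, 6 below and 3 at 0 (median -0.28), and 9 of the 13 3' UTR peaks were above 0. In the authors' deposited table the tubulin medians on the log2 scale were 1.04 for coding and 2.14 for 3' UTR peaks, and those of all peaks were 0.30 and -0.17. Its ratio was above 0 at 7 of the 12 and 10 of the 13, where 54.5% of all coding and 47.1% of all 3' UTR peaks were above 0. As summed reads, tubulin coding peaks held 148 under emetine against 103 in untreated cells, a ratio of totals of 1.60 (1.23 to 2.07). The coding totals count the TUBA1B pair with identical reads separately, each with 2 under emetine and 27 in untreated cells. That lowers the coding ratio, which was not computed with the pair counted once. The 3' UTR peaks held 154 and 126, a ratio of 1.36 (1.07 to 1.73). The same ratios over all peaks were 1.22 for coding and 0.920 for 3' UTR reads. Single libraries carried much of the coding totals: emetine library 3 held 95 of the 148 reads and control library 2 held 86 of the 103. By library, the 3' UTR reads were 22, 60 and 72 under emetine against 13, 49 and 64. By gene and region, 0 of 12 tubulin sums passed, as did 0% of all 8988, and 0 of the 12 had an unadjusted p under 0.05, beside 1.8% of all.

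**Figure D3:**
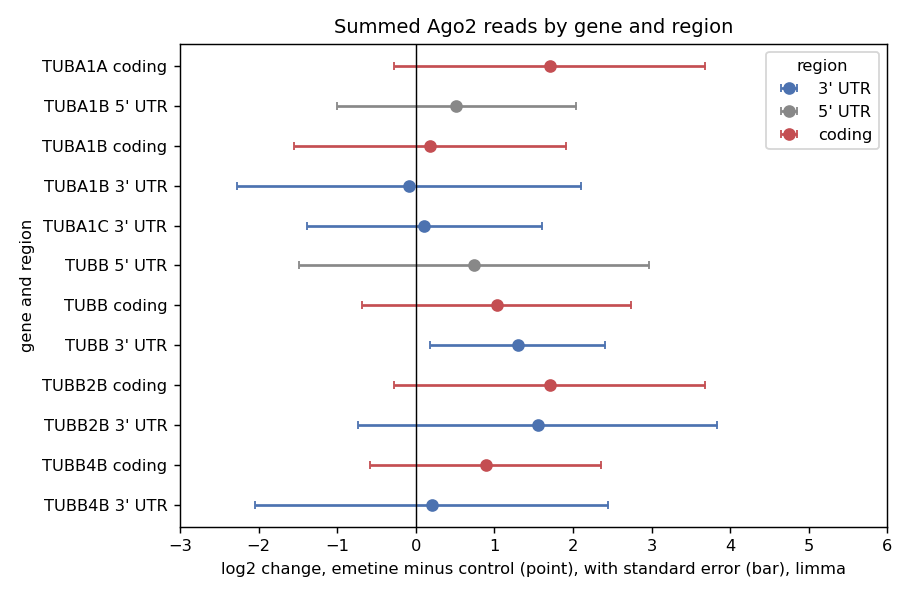
Log2 change in summed Ago2 reads, emetine minus control, for each tubulin gene and region, as points with the standard error from limma as bars. Of the 12 sums, 11 lie above 0, and the TUBB 3' UTR sum has the only bar of the 12 that does not reach 0.

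The difference between the regions was tested directly in the 4 tubulin genes with both kinds of peak. It compares, within each library, log2 coding minus log2 3' UTR normalised reads. Emetine minus control was 0.27 (SE 2.84) for TUBA1B, -0.27 (SE 1.67) for TUBB, 0.16 (SE 3.00) for TUBB2B and 0.69 (SE 1.86) for TUBB4B. None passed (limma adjusted p from 0.953 to 1), as did 0% of 2045 genes, whose median was 0.44, and 0 of the 4 had an unadjusted p under 0.05, beside 5.62% of those genes. Each SE exceeded its value.

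Coding peaks took 23.1%, 40.4% and 46.3% of the tubulin reads of the emetine libraries and 35.7%, 52.8% and 8.75% of those of the control libraries. The means were 36.6% ± 12.1 (SD, n = 3) and 32.4% ± 22.2 (SD, n = 3). The control libraries enclosed all emetine libraries, and the difference of 4.19 percentage points was smaller than either SD. With identical peaks counted once the means were 35.2% and 28.6%, a difference of 6.58 percentage points. Over all peaks the coding mean was 29% ± 6.69 (SD, n = 3) in emetine libraries and 25.2% ± 2.93 (SD, n = 3) in control libraries. The low share in control library 3 rests on 7 coding reads of 80 (95% Wilson interval 4.30% to 17.0%), and 64 of its tubulin reads were in 3' UTRs.

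**Figure D4:**
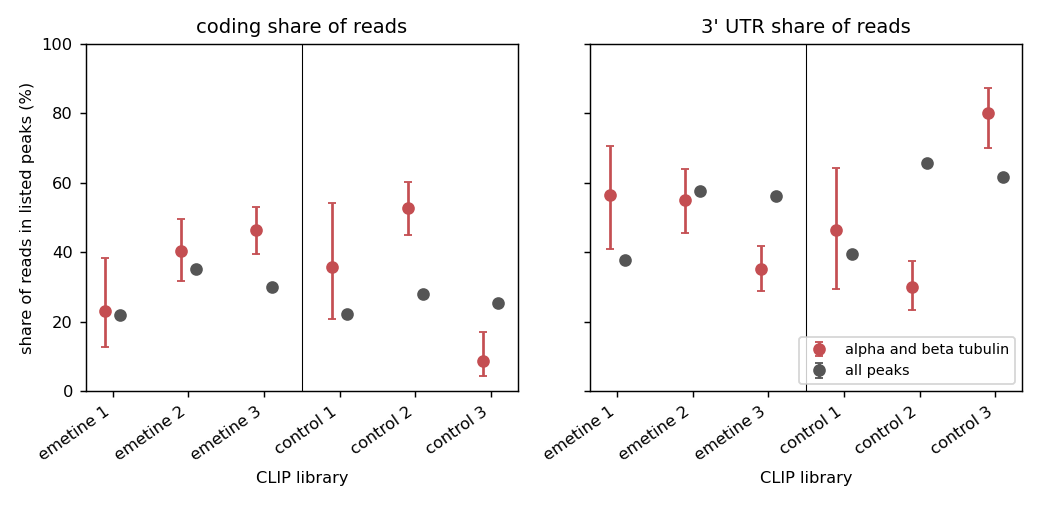
Coding (left) and 3' UTR (right) share of Ago2 reads in percent in each CLIP library, for tubulin peaks and for all peaks, with 95% Wilson intervals as bars. Tubulin coding shares run from 8.75% to 52.8% in the control libraries alone, wider than the range of all peaks.

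RNA of the tubulin genes stayed within a 2-fold change. With 1 RNA library per treatment there is no replicate check, and intervals are 95% exact ones for counting error. Of the 6 genes 0 were past 2-fold, beside 1.63% of the 5813 genes with at least 50 reads. TUBA1B had 3068 RNA reads under emetine against 872 in untreated cells, a log2 ratio of 0.47 (0.36 to 0.58) after scaling, at percentile 93.0 of these genes. TUBA1C, with 339 and 203 reads, had -0.60 (-0.86 to -0.35, percentile 3.97), and TUBB4B, with 430 and 245 reads, had -0.53 (-0.76 to -0.30, percentile 5.14). TUBB had 750 and 360 reads and a log2 ratio of -0.29 (-0.47 to -0.10). The intervals of TUBA1A (-0.62 to 0.26) and TUBB2B (-0.06 to 0.50) included 0. Of the 6 log2 ratios 2 were above 0 and 4 below, with a median of -0.24, where 50.9% of genes were above 0.

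Per kilobase of transcript, TUBA1B was the most abundant of the 6 by normalised RNA reads, at 4733 under emetine against 3417 in untreated cells. TUBB (705 and 860) and TUBB4B (659 and 954) followed, in opposite order in the treatments. TUBB2B was at 524 and 451, TUBA1C at 284 and 431, and TUBA1A was the lowest at 190 and 216. For TUBB and TUBB4B the Ago2 total was higher and the RNA lower with emetine, and for TUBA1B the reverse. For TUBB2B both were higher, though its RNA interval ran from -0.06 to 0.50, and for TUBA1C both were lower. As totals, the genes thus had no common pattern. The low Ago2 totals of TUBA1B and TUBA1C rest on control library 2, without which their log2 changes were 0.98 and 1.02. These totals also count overlapping peaks separately. The log2 change of TUBB4B was -0.16 without control library 3. The shared coding stretches given above apply to these RNA values too.

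**Figure D5:**
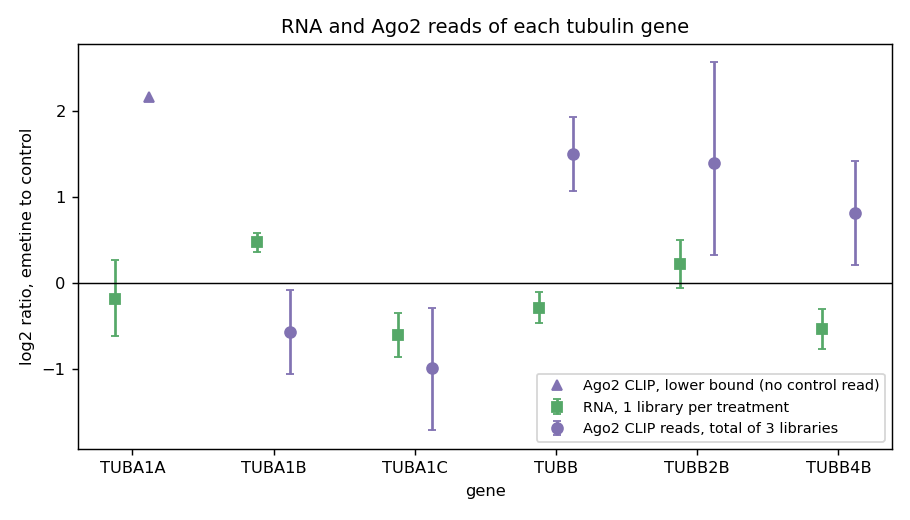
Log2 ratio of emetine to control for RNA reads (squares, 1 library per treatment) and for total Ago2 CLIP reads (circles, 3 libraries per treatment) of each tubulin gene, with 95% exact intervals as bars. The triangle for TUBA1A, labelled a lower bound, sets its 12 reads against a floor of 3, since it had no control read. It leaves out counting error in the 12 reads, unlike the bars.

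Genes related to tubulin function, and the cytoplasmic actins for comparison, were examined as 6 lists, and in each 0 genes passed (limma adjusted p under 0.05 over all genes). At most 3 genes per list are named, those with the smallest p in these same data. That choice favours genes without overlap, so the shares of all genes beside them are no test. Of the other tubulins and the ring complex that nucleates microtubules, 7 of 13 genes had peaks, with 2 log2 changes above 0 and 5 below (median -1.25). MZT1, a small subunit of that complex, held 0, 1 and 0 reads under emetine against 2, 30 and 11 in untreated cells, without overlap, as in 2.18% of all genes in this direction (log2 change -4.43, SE 2.33, limma adjusted p = 0.802). NEDD1, which docks the complex, and TUBGCP5, one of its subunits, had reads in 1 library each, 18 in control library 2 and 11 in emetine library 3.

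The folding list (chaperonin CCT, prefoldin and tubulin cofactors) had 16 of 24 genes with peaks, 9 above 0 and 7 below (median 0.64). CCT7, a CCT subunit, held 1, 24 and 9 reads under emetine against 0 in every control library. It was 12.6-fold higher in total against the floor of 3 reads, without overlap, as in 3% of all genes in this direction. TCP1, another CCT subunit, held 5, 15 and 21 against 1, 0 and 15, and its normalised reads did not overlap either (log2 change 2.85, SE 1.82). ARL2, a GTPase that works with the tubulin cofactors, held 2, 3 and 13 reads against 5, 39 and 36 (log2 change -1.95, SE 1.44). It was lower without overlap, as in 2.18% of all genes in this direction. All 3 had a limma adjusted p of 0.802.

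Of the autoregulation list, 8 of 12 genes had peaks, 4 above 0 and 4 below (median 0.01). TTC5, which recognises the nascent chain, and CNOT3, a CCR4-NOT subunit, each held 12 reads, all in emetine library 3. CNOT6L, a deadenylase of that complex, held 0, 33 and 20 reads under emetine against 7, 70 and 6 in untreated cells (log2 change -1.65, SE 1.53).

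Of 15 tubulin-modifying genes 7 had peaks, 4 above 0 and 3 below (median 0.07). TTL, the ligase that restores the tyrosine at the end of alpha tubulin, held 2, 17 and 38 reads under emetine against 12, 22 and 40 in untreated cells (log2 change -0.84, SE 1.19). TTLL12, a relative of TTL, had a log2 change of -2.02 (SE 2.11), and TTLL3, a tubulin glycylase, had 11 reads under emetine against 0 in untreated cells.

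Of 23 microtubule-binding genes 20 had peaks, 13 above 0 and 7 below (median 0.42). CKAP2, a spindle protein, held 4, 0 and 0 reads under emetine against 5, 30 and 7 in untreated cells (log2 change -3.59, SE 2.10). MAP7, which helps recruit kinesin, held 7, 7 and 18 against 0, 15 and 1 (log2 change 2.97, SE 1.96). SPAST, a microtubule-severing enzyme, held 0 reads under emetine against 24 in untreated cells.

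Both cytoplasmic actins, which form another filament system of the cell, had peaks. ACTB held 29, 79 and 131 reads under emetine against 19, 5 and 63 in untreated cells. Normalised, these were 257, 237 and 368 against 152, 14.1 and 153, without overlap, as in 3% of all genes in this direction. The log2 change of ACTB was 2.00 (SE 0.85), with an unadjusted limma p of 0.0193 and an adjusted p of 0.802. Of all genes, 1.83% had an unadjusted limma p under 0.05. ACTG1 held 33, 142 and 126 against 29, 116 and 102 (log2 change 0.41, SE 0.60).

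The genes whose Ago2 reads most resembled the summed tubulin reads were found by Pearson's r of log2(normalised reads + 1) over the 6 libraries, among 1104 genes with at least 100 reads. They were SRSF3 (r = 0.949), LEPROT (0.933), REST (0.920), SMAD2 (0.917) and MGAT5 (0.910). Each of the 5 had its most emetine reads in library 3 and its most control reads in library 2, the libraries that held 205 and 163 of the tubulin reads. Libraries can share depth or antibody effects across genes, which was not tested here. These values therefore describe likeness in these 6 libraries only.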

How the data were processed

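Ago2 CLIP-seq (6 libraries) and RNA-seq (2 libraries) of 293S cells were used. The deposited table gives, per the file headers, a normalised average and an emetine to control ratio of each peak as logarithms. The deposited values match the natural log, a base the headers do not state, of normalised CLIP reads over RNA reads as the authors scaled them, and they were converted to log2 where printed so. The submitters' processing notes name hg19, Bowtie 0.12.8, TopHat and DESeq without roles. Coordinates are as listed, since whether starts count from 0 or 1 is not stated, nor is the peak caller.

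The value of a treatment is an average, across its 3 CLIP libraries, of the natural log of 1 plus scaled reads, less the same log for its RNA library. Factors were read from the spacing of the values, and whole reads were searched to a tolerance of 2e-14. After some peaks had no match, the tolerance was widened to 2e-13 for the genes left over, which gave 598 more values. In all, 22154 peaks (98.44%) were recovered, and the other 352, all of 1 noncoding gene, were left out of all tests. The 27 tubulin peaks needed no wider tolerance. As a check for chance matches, the values of 400 genes (1451 peaks) were shifted and searched again. Over the full range of RNA reads, 33 shifted peaks matched in emetine (2.27%) and 49 in the control (3.38%). After that result was seen, the search was also limited to the range in which each real gene had been solved, where 0 and 0 matched. The ranges widen from 1 to 8: the shifted matches lay in ranges 5 to 8, and every tubulin gene was solved in range 1 or 2.

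limma 3.58.1 (R 4.3.3, with intensity trend) was fitted on log2(normalised reads + 1) with treatment as the only term, over all features, and p-values were adjusted by Benjamini-Hochberg. It was tested on simulated data. A floor of 3 reads over the 3 libraries stands for a count of 0. Sequences came from GENCODE 29 transcripts, whose build differs from hg19, so no coordinates were taken from them.

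Every TUBA or TUBB gene is named, and peaks with at least 20 reads are described singly. From each related list the 3 genes with the smallest p are named, and the 5 genes most like the family. The members and lists were chosen with earlier results of these data known. Alternatives were other constants, a filter on low reads, other scaling, leaving out each library, a depth term, voom, and identical peaks counted once.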

Additional observations from a re-analysis of the deposited data

How the results depend on the processing

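No paired analysis was run because the recovered libraries carry no antibody name and share no replicate number. The planned antibody block was therefore left out. Each treatment used the same 3 antibodies, and the p-values do not use that pairing. The nearest fit is the depth class of the library as a term, which sets library 1 of each treatment apart from the other libraries and so may block 1 antibody, though the labels do not tell. Among 35 tubulin results, 13 kept their direction under every alternative, and the smallest adjusted p over their 433 values was 0.719 (limma). Higher ones among the 13 included the TUBB and TUBB2B gene sums, the TUBB 3' UTR sum and the non-overlapping peaks of TUBB and TUBB4B. Lower ones were the overlapping TUBA1B coding peaks (-1.72), TUBA1C peak 49667030 (-3.24) and TUBB4B coding peak 140137159 (-1.88). The 13 are not separate, since the TUBA1B pair held the same reads and the TUBB2B 3' UTR sum is a single peak. In the fit with the depth term, 3 gene sums and 3 gene and region sums of the whole table passed, none a tubulin. In it 229 gene sums had an unadjusted p under 0.05 (limma), against 116 without the term. Leaving out 1 library gave 0 to 3 gene and region sums. Counting genes with at least 20 RNA reads put 155 past 2-fold, against 95. The difference in coding share was 6.58 percentage points with identical peaks counted once and -0.35 with normalised reads weighted by reads. Without 1 library it was -7.64 to 14.4. The tubulin coding peaks with a log2 change above 0 numbered 3 to 8 without 1 library. The alpha tubulin read ratio was 0.449 to 2.03 without 1 library, the upper value without control library 2; these 2 were chosen after seeing the data. The cause was not tested for any of these.

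Reversed log2 changes were as follows. With a constant of 5, the TUBB coding peak 30690705 gave 0.18, the TUBB 3' UTR peak 30692269 -0.24 and the TUBA1B coding sum -0.057. With a constant of 0.5 the TUBB4B 3' UTR sum gave -0.024. With voom, the same TUBB coding peak gave 0.28, the TUBA1C gene sum -0.45, the TUBA1C 3' UTR sum -0.44 and the TUBA1B 3' UTR sum 0.017.

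Without 1 library in turn, single peaks ranged from -0.36 to 1.28 (TUBA1B 5' UTR, and the same for its sum), -0.45 to 2.29 (TUBB 5' UTR, and the same for its sum), -2.20 to 0.65 (TUBB coding 30690705) and -1.68 to 1.49 (TUBB 3' UTR 30692269). Gene sums ranged from -0.54 to 0.98 for TUBA1B, -0.84 to 1.02 for TUBA1C (and its 3' UTR sum) and -0.16 to 1.34 for TUBB4B. The sums of TUBA1A, TUBB2B coding, TTC5 and CNOT3, each in emetine library 3 alone, ranged from 0 to 2.56, TUBGCP5 from 0 to 2.5, NEDD1 from -2.85 to 0 and CNOT6L from -2.89 to 0.43. Region sums ranged from -1.39 to 1.30 (TUBA1B 3' UTR), -1.11 to 1.60 (TUBA1B coding), -0.030 to 1.69 (TUBB coding), -0.75 to 1.58 (TUBB4B 3' UTR) and -0.22 to 1.70 (TUBB4B coding). Coding minus 3' UTR ranged from -2.41 to 2.39 (TUBA1B), -1.20 to 0.42 (TUBB), -3.12 to 2.04 (TUBB2B) and -0.42 to 1.80 (TUBB4B).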
